A study of Arabidopsis thaliana with 22 samples.

Results

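Roots of Arabidopsis thaliana were harvested in 3 numbered biological replicates of a single Fe-deficiency time course, and the arrays of replicate 1 were compared with those of replicates 2 and 3. The comparison took the arrays of 0, 1 and 6 h, so that 6 arrays of replicate 1 were set against 12 arrays of replicates 2 and 3, out of 22 arrays in the whole series. Arrays were assigned by the replicate number, time and medium in the labels. The limit to these 3 times was set with earlier results of the data known. The 4 arrays of 24 h carry only the numbers 1 and 2, were in no fit and are given as values; among them, the Fe-sufficient array numbered 2, not the one numbered 1, carried the expression pattern of replicate 1. The question was which root functions differed between separate harvests of 1 design, and whether Fe genes were among them.

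Plants were grown in nutrient solution, washed in EDTA and moved to Fe-free solution (Fe-deficient) or to Fe-replete solution (Fe-sufficient), and roots were taken at 0, 1 and 6 h. Each replicate number held 1 Fe-deficient and 1 Fe-sufficient array per time. The methods name 1 accession, Landsberg erecta, for all plants, and roots of many plants were pooled per harvest; the labels name no accession and do not say when the replicates were grown. If all 6 arrays of a replicate number come from 1 experiment, the comparison is of 1 experiment with 2, and the p-values below measure only the spread between these arrays.

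Separate harvests of an Arabidopsis root culture can differ in the state of the plants, in the way roots were handled and in the plants themselves. Genes of the Fe-deficiency response are known to be quick to follow Fe supply: reduction of Fe(III) at the root surface, uptake of Fe(II) by IRT1 and secretion of coumarins are switched on by a cascade of bHLH factors around FIT, while ferritins and vacuolar transporters store Fe when it is ample. Dehydrins, expansins and glutathione S-transferases are families known to respond to water status, growth and stress.

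The arrays of replicate 1 stood apart from all others. When each array was expressed as its deviation from the mean of its time and medium, over 22746 probe sets, 2 arrays of replicate 1 from different conditions correlated with r = 0.33 to 0.45 (15 pairs). The same figure was 0.14 to 0.21 within replicate 2 and 0.099 to 0.24 within replicate 3. Arrays of replicate 1 paired with arrays of replicate 2 from other conditions gave -0.27 to -0.17, and with arrays of replicate 3 they gave -0.30 to -0.14, whereas arrays of replicates 2 and 3 gave 0.021 to 0.16 (30 pairs each). These correlations run across probe sets, which are not independent. The deviations also cancel over the replicates of each time and medium. A shift shared by the replicate 1 arrays thus by itself gives negative r with the others and positive r between replicates 2 and 3. These values are therefore not separate results.

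**Figure D1:**
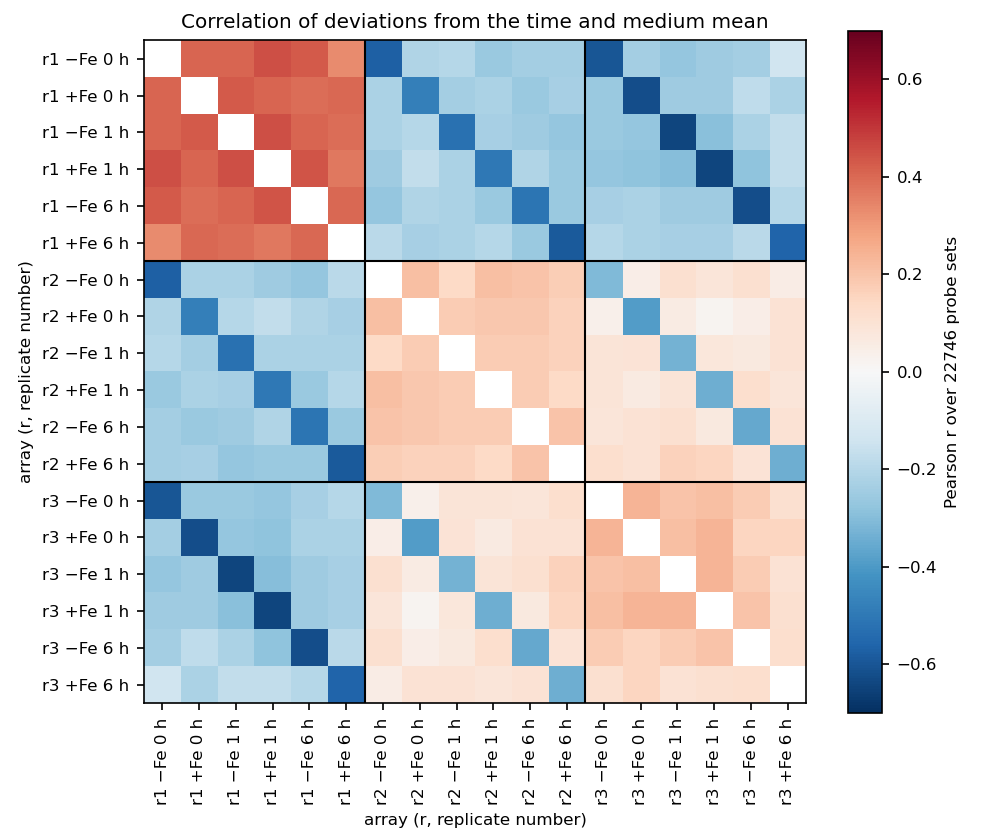
Pearson r between the arrays' deviations from their time and medium mean, over 22746 probe sets, ordered by replicate number (r1, r2, r3), time and medium (−Fe, Fe-deficient; +Fe, Fe-sufficient). The replicate 1 block holds r of 0.33 to 0.45; pairs of arrays of the same time and medium are negative because their deviations sum to 0.

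Transcript levels of 6170 of 22746 probe sets (27.1%) differed in replicate 1 (limma, Benjamini-Hochberg adjusted p below 0.05). Of these, 2532 (11.1%) were higher and 3638 (16%) lower in replicate 1 than in replicates 2 and 3. Most differences were small: 3265 of the calls (52.9%) were under 1.5-fold. The large differences leaned the other way. Over 4-fold, 253 probe sets were higher and 90 lower in replicate 1, and over 16-fold, 54 were higher and 13 lower. The median log2 difference over all probe sets was -0.088.

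Replicate 1 differed from replicate 2 in 4740 probe sets (20.8%) and from replicate 3 in 6050 (26.6%), 2 comparisons that share the arrays of replicate 1. Replicate 2 differed from replicate 3 in 27 (0.119%), with 3257 (14.3%) at an unadjusted p under 0.05. That count ranged from 1 to 106 when single arrays were left out, the lowest without the Fe-sufficient 0 h array of replicate 3 and the highest without the Fe-sufficient 6 h array of replicate 3. With the study's own criterion, a change of over 1.5-fold at an unadjusted p under 0.05, 3540 probe sets (15.6%) differed between replicate 1 and replicates 2 and 3, and 1209 (5.32%) between replicate 2 and replicate 3.

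**Figure D2:**
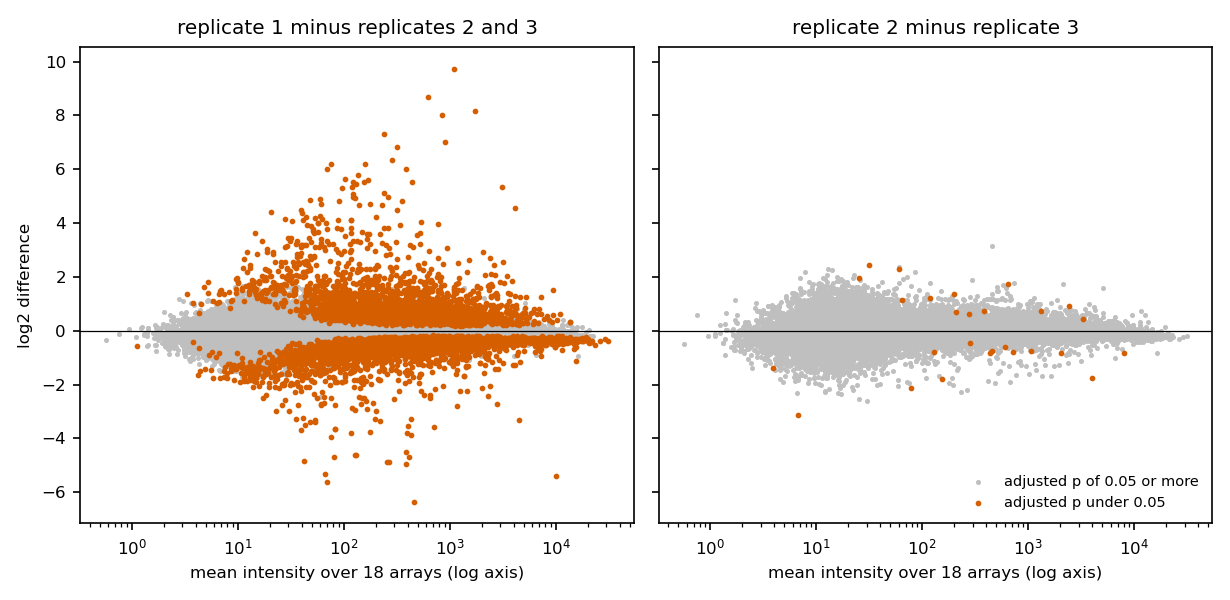
log2 difference of each of 22746 probe sets against its mean intensity (log axis), for replicate 1 minus replicates 2 and 3 (left) and replicate 2 minus replicate 3 (right). Orange points passed an adjusted p of 0.05: 6170 on the left, reaching a log2 difference of 9.74, and 27 on the right.

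For 1634 probe sets (7.18%) no array of replicate 1 overlapped with any of replicates 2 and 3. All 6 arrays of replicate 1 were above all 12 others for 922 of them (4.05%) and below for 712 (3.13%). Whether the difference varied with medium or time was tested by interactions. The interaction of replicate 1 with the medium passed the adjusted p for 0 probe sets (847, or 3.72%, at an unadjusted p under 0.05), and the interaction with time for 0 (1143, or 5.03%, at an unadjusted p under 0.05, beside 1137 by chance alone). These interactions rest on 1 array of replicate 1 per time and medium.

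Some transcripts were well measured in one arm and close to background in the other. A set of 22 probe sets was at an intensity of 100 or more on every array of replicate 1 and under 32 on every array of replicates 2 and 3, and 4 showed the opposite. The thresholds were chosen after the values were seen; with 200 and 16 in their place, 4 probe sets remained in all. By the same rule, replicate 2 alone and replicate 3 alone each gave 0 and 0. Of the 26, 19 could be named.

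AT5G45500 led the increases. Its intensity was 3128.6, 3275.6 and 3443.8 (lowest, median, highest) in replicate 1, against 1.0, 2.6 and 7.6 in replicates 2 and 3. The log2 difference was 9.74 ± 0.19 (SE; adjusted p = 6.09e-12) on the log2(intensity + 1) scale, and 6.56 with 32 added in place of 1. AT3G32030 followed with 1306.2, 1675.8 and 2762.6 in replicate 1 and 1.4, 3.2 and 12.8 in replicates 2 and 3 (log2 difference 8.69 ± 0.26). AT5G23830 was at 4308.2 to 5985.4 in replicate 1 and at 3.5 to 45.3 in the others, and AT2G25450 at 1769.0 to 3363.3 and at 2.2 to 34.2. These genes carry no name or role in the annotation used, and neither do AT5G54040, AT4G01910, AT4G10540, AT2G25510, AT5G45220, AT3G46270, AT3G54070 and AT1G57630, which complete the 12 largest increases with log2 differences of 6.03 to 5.13. None of the 12 overlapped between the arms, beside 7.18% of all probe sets. That goes with their choice as the largest differences and is no separate result.

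Named genes followed among the increases, chosen after their values were seen. CSA1, which encodes a disease resistance protein of the TIR-NBS-LRR class, was at 276.5, 324.6 and 420.3 in replicate 1 and at 2.6, 12.5 and 30.7 in replicates 2 and 3 (log2 difference 4.97 ± 0.48, adjusted p = 9.81e-06). QQS, an orphan gene known to affect starch content and to vary in expression between natural accessions, was at 38.0, 90 and 894.4 in replicate 1 and at 3.3, 5.6 and 25.1 in the others (4.11 ± 0.60, adjusted p = 0.000327). The highest value of QQS was on the Fe-sufficient 6 h array. ZW9 was at 1497.5 to 2860.6 in replicate 1 and at 83.4 to 191.4 in the others, and the cytochrome P450 gene CYP71B37 at 300.0 to 614.2 and at 29.8 to 78.3. LUL1, a ubiquitin ligase gene, was at 370.2 to 483.7 in replicate 1 and at 21.3 to 88.0 in replicates 2 and 3. The genes of the subtilase SBT4.12 (log2 difference 2.17 ± 0.18), the RALF-like peptide RALFL33 (1.62 ± 0.12) and the jacalin-like lectin JAL33 (1.48 ± 0.18) were abundant in all arrays, with 1445 to 1809 as their mean intensities, and did not overlap either.

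Among the decreases, AT3G47320, annotated as a pseudogene, was at 1.2, 9.4 and 20.3 in replicate 1 and at 528.9, 647.5 and 864.3 in replicates 2 and 3, a log2 difference of -6.35 ± 0.35 (adjusted p = 8.91e-08; -4.11 with 32 added). AOP3, a dioxygenase gene of glucosinolate side-chain modification known for transcript levels that differ between natural accessions, was the 1 gene with a symbol among the 12 largest decreases. Its intensity was 10, 21.0 and 57.3 in replicate 1 and 439.5, 600.6 and 783.0 in replicates 2 and 3 (log2 difference -4.67 ± 0.21, adjusted p = 9.44e-09). The rest were AT5G15360, AT4G19240, AT1G44510, AT1G51990, AT4G31570, AT1G66800, AT5G48350, AT1G57650, AT1G50290 and AT1G22900, with log2 differences of -4.95 to -3.34. None of them overlapped, which again goes with their choice by size. Named genes further down the order, chosen after their values were seen, were LIL3:1 (light-harvesting-like protein, -2.93 ± 0.32), the subtilase gene SBT3.12 (-2.53 ± 0.12) and SQN (a cyclophilin, -1.83 ± 0.13). Genotype, seed lot, culture and harvest cannot be told apart from the replicate number in these data, and none of them was tested.

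**Figure D3:**
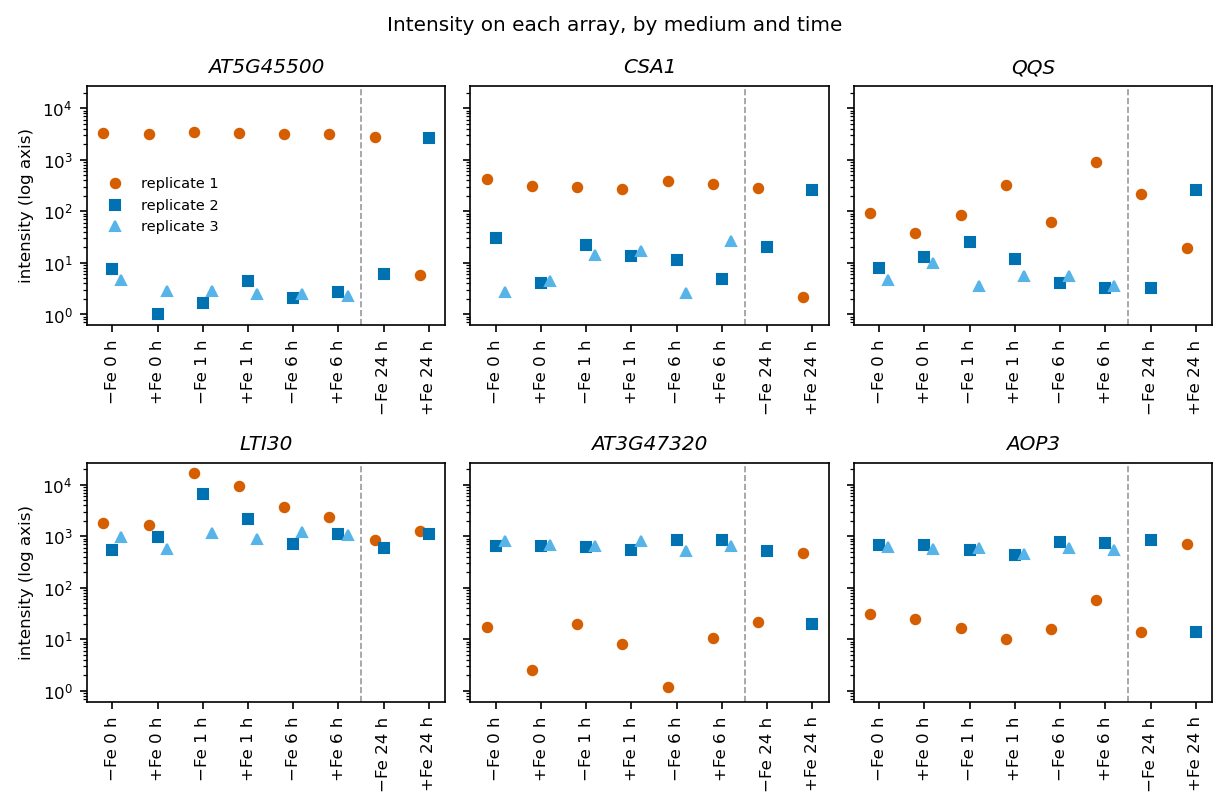
Intensity (log axis) of 6 genes on each of 22 arrays by medium and time, with replicate 1 as circles, replicate 2 as squares and replicate 3 as triangles; arrays right of the dashed line (24 h) were in no fit. AT5G45500, CSA1 and QQS were higher and AT3G47320 and AOP3 lower on all 6 replicate 1 arrays of 0 to 6 h; at 24 h the Fe-deficient replicate 1 and the Fe-sufficient replicate 2 arrays carry that pattern.

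The 24 h arrays carried the same genes, but not under the same numbers. Of the 22 probe sets, 22 were at 100 or more on the Fe-deficient 24 h array of replicate 1 and 0 on that of replicate 2. On the Fe-sufficient 24 h arrays it was the other way round: 0 of 22 on the array of replicate 1 and 21 of 22 on that of replicate 2. AT5G45500 was at 2807.0 on the Fe-deficient replicate 1 array and 6.1 on the Fe-deficient replicate 2 array, and at 5.9 on the Fe-sufficient replicate 1 array and 2655.9 on the Fe-sufficient replicate 2 array. AOP3 gave 14.1 and 858.5 on the Fe-deficient arrays of replicates 1 and 2, and 700.8 and 14.2 on the Fe-sufficient ones. Of 274 probe sets with no overlap and a difference over 4-fold at 0 to 6 h, 272 were nearer to the replicate 1 mean on the Fe-deficient replicate 1 and on the Fe-sufficient replicate 2 array, against 11 on each of the 2 other arrays. Across all probe sets, the 24 h difference of replicate 1 minus replicate 2 correlated with the difference at 0 to 6 h with r = 0.47 in Fe-deficient roots and r = -0.48 in Fe-sufficient roots. No array was moved to another number.

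The differing genes lay on all chromosomes. Among probe sets with 1 gene, 25.9%, 22.1%, 25.6%, 26.6% and 27.4% were called for chromosomes 1 to 5, and 7 of 69 (10.1%) for the plastid genome. Of 5848 pairs of neighbouring protein-coding genes with both members measured, 9 had both members over 4-fold. These were 5.17% of the 174 pairs with at least 1 member over 4-fold. Of the measured neighbours in all pairs, 1.56% were over 4-fold. That is a share of single genes and not of pairs, so these percentages do not measure an excess of shared pairs. Among the 9 pairs, 6 moved the same way and 3 in opposite directions. In the pair AT1G57630 and AT1G57650, the first was at 392.3 to 924.9 in replicate 1 and 4.0 to 67.4 in the others, and the second at 54.8 to 119.7 and 790.4 to 1248.5. AT5G45500 and its neighbour AT5G45510 were both higher in replicate 1 (9.74 and 2.91).

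Of 14 probe sets on the Fe acquisition list, 4 were lower in replicate 1, 1 was higher and 9 did not pass the test, with a median log2 difference of -0.26 beside -0.088 over all probe sets. The share called was 35.7%, not far from the 27.1% over all probe sets, of which 11.1% were higher and 16% lower. IRT2, an Fe transporter of root epidermal cells, was at 4.2, 33.7 and 70.9 in replicate 1 and at 34.3, 84.5 and 262.9 in replicates 2 and 3 (log2 difference -1.90 ± 0.42, adjusted p = 0.00541; -1.04 with 32 added). FRO3, a ferric reductase of mitochondria, was at 431.1, 580.5 and 1239.8 in replicate 1 and at 704.5, 875.0 and 2602.5 in the others (-0.85 ± 0.20, adjusted p = 0.00738). Both ranges overlapped, but replicate 1 was below both other replicates in 5 of 6 conditions for each gene.

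MTPA2, which loads Zn into the vacuole of Fe-deficient roots, fell in replicate 1 by 1.16 on the log2 scale (SE 0.26, adjusted p = 0.00523), and the cytochrome P450 gene CYP71B5 by 1.23 (SE 0.29, adjusted p = 0.00728). BGLU42, a β-glucosidase of coumarin release, was at 644.9, 740.8 and 844.1 in replicate 1 and at 335.8, 424.9 and 844.6 in replicates 2 and 3 (0.71 ± 0.17, adjusted p = 0.00766). IRT1, the main Fe(II) transporter of the root, was at 217.6, 669.5 and 2118.3 in replicate 1 and at 277.7, 1314.2 and 3909.6 in the others, and its log2 difference of -1.09 ± 0.52 did not pass the test (adjusted p = 0.14). It passed without the Fe-sufficient 6 h array of replicate 1 (-1.58, adjusted p = 0.034). FIT, the bHLH factor that governs uptake, had a difference of -0.01 ± 0.15. MYB72 (-0.95 ± 0.47), MYB10 (0.07 ± 0.38), F6'H1 (-0.23 ± 0.09) and S8H (0.13 ± 0.60), of coumarin synthesis and its control, did not pass the test, nor did GRF11, COPT2 and IREG2. MYB72 passed without the Fe-sufficient 1 h array of replicate 3 (-1.18, adjusted p = 0.0431). COPT2 passed without the Fe-deficient 0 h array of replicate 2 (0.80, adjusted p = 0.0489). It also passed without the Fe-deficient 6 h array of replicate 3 (0.81, adjusted p = 0.042).

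Of 20 probe sets for Fe-deficiency regulators and Fe distribution, 2 were higher, 2 lower and 16 not called in replicate 1 (20% called, median -0.096, beside 27.1% and -0.088 over all probe sets). BHLH121, an upstream bHLH regulator of the response, was at 355.8, 390.8 and 479.3 in replicate 1 and at 157.8, 197.6 and 237.7 in replicates 2 and 3, without overlap (1.01 ± 0.11, adjusted p = 3.79e-05). ZIF1, a vacuolar transporter that moves nicotianamine, was at 684.6 to 1318.4 in replicate 1 and 315.5 to 907.7 in the others (0.95 ± 0.18, adjusted p = 0.00238). BTS, an E3 ligase that limits the response, was lower (-0.49 ± 0.11, adjusted p = 0.00481), as was BHLH39 of the Fe-responsive bHLH factors (-1.11 ± 0.34, adjusted p = 0.0274). The BHLH39 call was lost without any 1 of the 4 replicate 1 arrays of 0 and 1 h (adjusted p of 0.0684 to 0.0844). ILR3, BHLH34, BHLH104 and BHLH115, the constitutive bHLH factors upstream, differed by -0.11 to 0.06, and none of them passed the test.

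None of the 7 probe sets for Fe storage passed the test (median -0.082, beside 27.1% called and a median of -0.088 over all probe sets). So few probe sets do not set the list apart from that share. The ferritin genes gave 0.14 ± 0.20 for FER1, -0.15 ± 0.12 for FER3 and -0.14 ± 0.13 for FER4. The vacuolar Fe transporter-like genes VTL1, VTL3, VTL4 and VTL5 lay between -0.40 and 0.58. In Fe-deficient arrays alone, VTL5 was higher in replicate 1 (1.26, adjusted p = 0.0362). In Fe-sufficient roots its differences were -0.63, -0.82 and 1.16 at 0, 1 and 6 h. The interaction of replicate 1 with the medium did not pass for VTL5 (unadjusted p = 0.0192, adjusted p = 0.999).

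**Figure D4:**
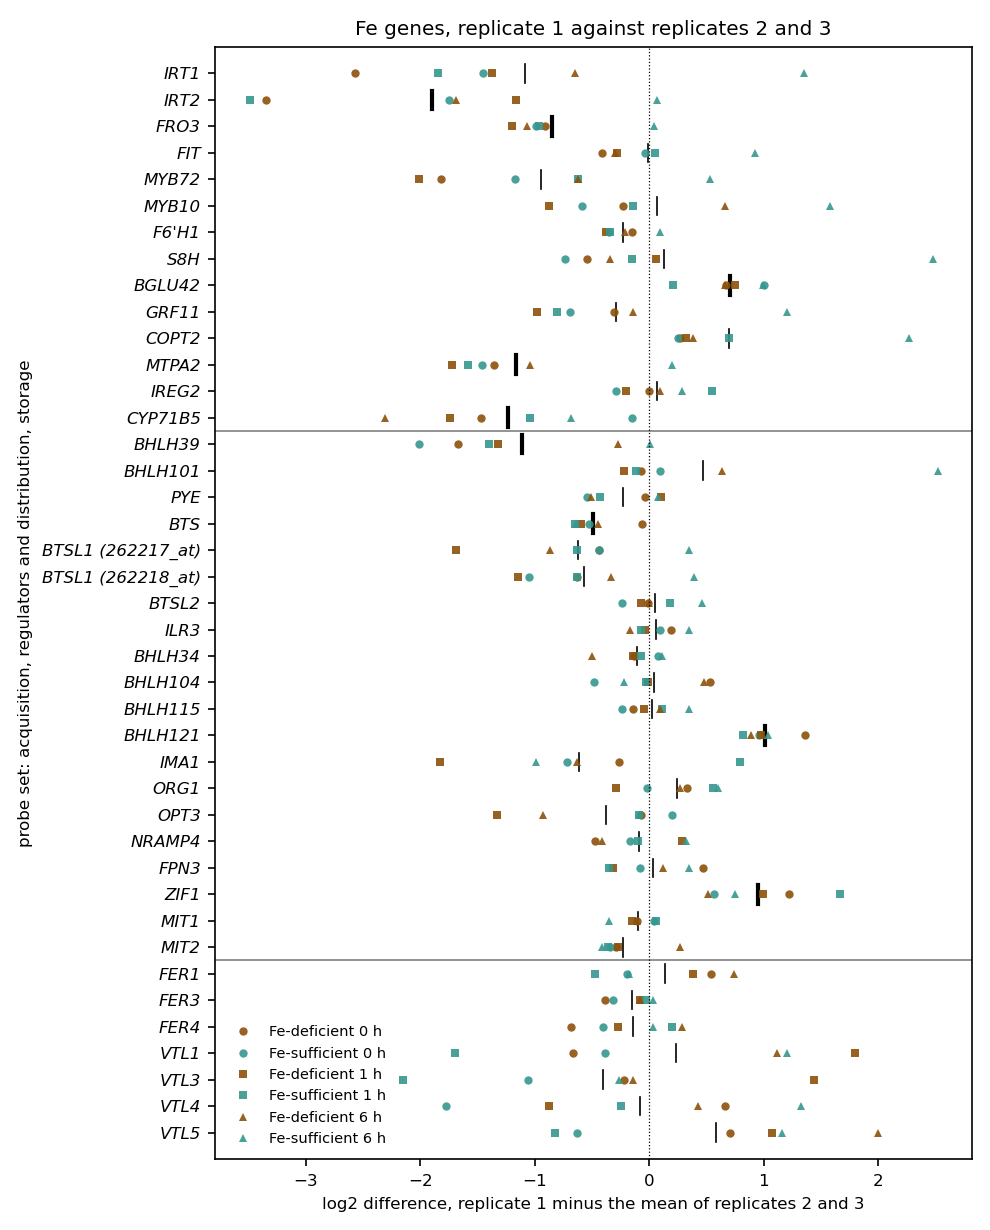
log2 difference of replicate 1 minus the mean of replicates 2 and 3 for 41 probe sets of Fe acquisition, regulation and distribution, and storage, in each of 6 conditions (brown, Fe-deficient; green, Fe-sufficient; circles 0 h, squares 1 h, triangles 6 h). Black bars give the fitted difference, thick where the adjusted p was under 0.05; the green triangles of S8H (2.48), COPT2 (2.27) and BHLH101 (2.52) lie far to the right of the other conditions.

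In the acquisition genes, the difference of replicate 1 from replicates 2 and 3 stood apart in the Fe-sufficient 6 h condition. For 11 of the 14 acquisition probe sets (78.6%), the highest of the 6 differences was that of the Fe-sufficient 6 h condition, beside 18.4% over all probe sets. The median difference of the list was 0.72 there, and between -0.93 and -0.32 in the other 5 conditions. On the Fe-sufficient 6 h arrays, IRT1 was at 1122.3 in replicate 1 against 277.7 in replicate 2 and 698.4 in replicate 3. S8H was at 1244.3 in replicate 1 against 149.1 and 330.8 in replicates 2 and 3, COPT2 at 376.1 against 81.9 and 73.0, and FIT at 725.6 against 354.8 and 415.8. The Fe-sufficient 6 h array of replicate 1 was thus above both others for each of these 4 genes. Without that array, 6 of the 14 acquisition probe sets were called. The differences also move with the arrays of replicates 2 and 3. From 0 to 6 h in Fe-sufficient roots, IRT1 went from 718.3 to 1122.3 in replicate 1. It went from 3007.7 to 277.7 in replicate 2 and from 1283.7 to 698.4 in replicate 3. The part of each replicate in the shift was not tested.

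The Fe response at 6 h was taken within each replicate number. It uses the same Fe-sufficient 6 h arrays as the differences above and is not a separate result from them. The median log2 difference of Fe-deficient minus Fe-sufficient roots over the 14 acquisition probe sets was 0.57 in replicate 1, 1.84 in replicate 2 and 2.0 in replicate 3, beside -0.03, -0.04 and 0.01 over all probe sets. For IRT1 it was 0.92 in replicate 1 (2118.3 in Fe-deficient and 1122.3 in Fe-sufficient roots), 3.52 in replicate 2 (3197.7 and 277.7) and 2.30 in replicate 3 (3445.0 and 698.4). For FIT it was 0.05, 1.2 and 1.32 in replicates 1, 2 and 3, and for S8H 0.44, 3.32 and 3.20. Over the 20 regulator and distribution probe sets the medians were 0.43, 0.48 and 0.94. Here BHLH39 had values of 2.14, 1.98 and 2.87 and ORG1 of 1.58, 2.06 and 1.75 in replicates 1, 2 and 3. BTS was at 0.86, 0.74 and 0.59, and IMA1, a gene of an Fe-responsive peptide, at 1.69, 0.84 and 1.82, so that the order of the replicates in the acquisition list did not hold for every Fe gene. For Fe storage the medians were -0.72, -0.87 and -1.10, with FER1 at -1.0, -1.60 and -2.24 and FER3 at -0.72, -0.13 and -1.10. These values rest on 1 pair of arrays per replicate and have no test of their own.

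**Figure D5:**
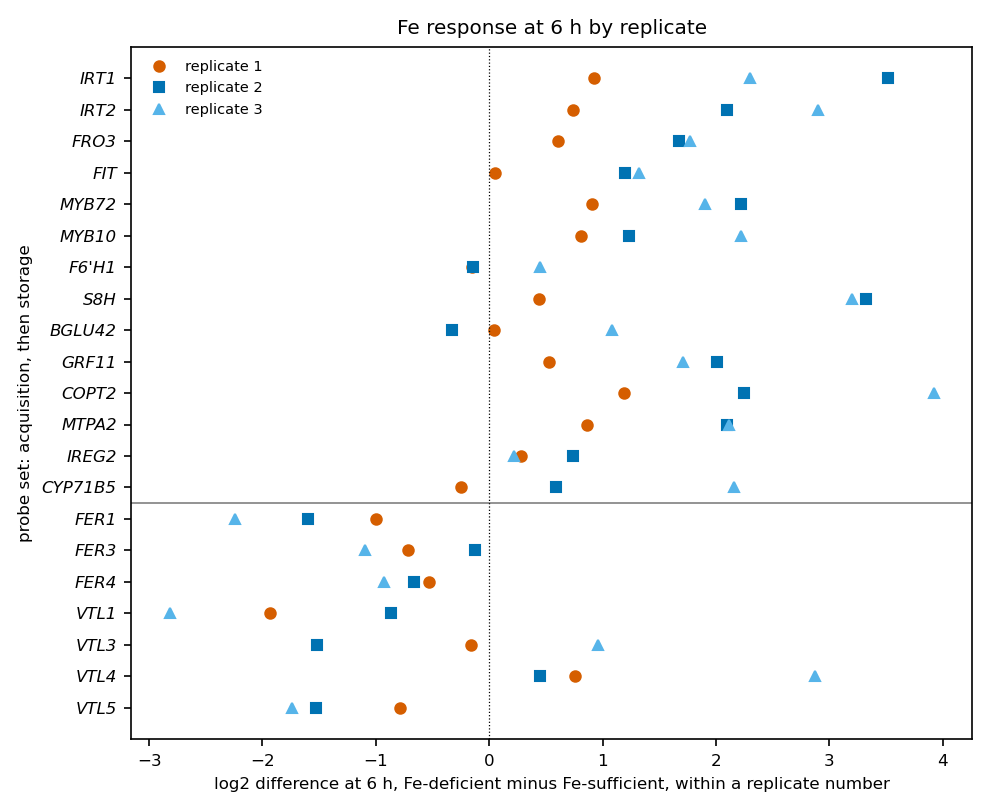
log2 difference at 6 h of Fe-deficient minus Fe-sufficient roots within each replicate number for 14 Fe acquisition probe sets (above the line) and 7 Fe storage probe sets (below it), 1 pair of arrays per point. Replicate 1 (circles) gave the smallest acquisition median, 0.57, against 1.84 in replicate 2 and 2.0 in replicate 3.

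At 0 h, where both media had only been washed and transferred, the acquisition list also differed between replicates. Its median Fe-deficient minus Fe-sufficient difference was -0.30 in replicate 1, 0.34 in replicate 2 and -0.64 in replicate 3, with 3, 13 and 2 of 14 probe sets positive. S8H at 0 h was at 330.7 in Fe-deficient and 643.8 in Fe-sufficient roots of replicate 1, at 2197.9 and 1314.3 in replicate 2, and at 104.4 and 885.1 in replicate 3. At 1 h the list's medians were 0.12, 0.76 and 0.31 in replicates 1, 2 and 3.

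The Fe contrasts were fitted without and with the replicate number as a block. Over all 22746 probe sets, the median standard error of a Fe contrast was 0.311 in log2 without the block and 0.236 with it. With the study's criterion, 428 probe sets (1.88%) differed between Fe-deficient and Fe-sufficient roots at 0 h, 414 (1.82%) at 1 h and 474 (2.08%) at 6 h without the block, and 602, 566 and 642 with it. The study, whose methods name a probe-level linear model, reports far fewer genes by this criterion at these times. At 6 h, 8 of 14 acquisition, 9 of 20 regulator and distribution, and 6 of 7 storage probe sets met the criterion without the block, and 10, 10 and 5 with it. The storage probe sets did not all move the same way. FER1, FER3, FER4, VTL1 and VTL5 fell, and VTL4, a dim probe set (mean intensity 22.6), rose by 1.36. VTL4 no longer met the criterion with the block. The lists hold genes that the study had itself called Fe-responsive from this series, so these shares are not independent of its calls. After adjustment, 0, 0 and 2 probe sets (0.00879%) passed at 0, 1 and 6 h without the block and 0, 0 and 1 with it. At an unadjusted p under 0.05 there were 565, 520 and 597 (2.48%, 2.29% and 2.62%) without the block and 1045, 861 and 999 with it. All of these unadjusted counts were below the 1137 expected by chance alone. The call made with the block was ORG1, a kinase-like gene (log2 difference 1.80, adjusted p = 0.0408). Without the Fe-sufficient 1 h array of replicate 1, 769 probe sets met the criterion at 1 h, in the fit without the block.

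Other metal genes were split. Of 6 probe sets for Zn transport, ZIF1 was higher and MTPA2 and MTP8 were lower in replicate 1 (50% called, beside 27.1% over all probe sets). MTP8, a vacuolar transporter of the cation diffusion facilitator family, was at 21.3, 49.5 and 243.2 in replicate 1 and 60.6, 171.2 and 612.5 in the others (-1.37 ± 0.42, adjusted p = 0.0298). Its call was lost without any 1 of the 4 replicate 1 arrays of 0 and 1 h (adjusted p of 0.0675 to 0.10). ZIP3, ZIP6 and ZIP9 differed by -0.18 to 0.38 without passing the test. For Cu, neither COPT2 (0.70 ± 0.29) nor CCS (-0.13 ± 0.16) passed.

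Cell wall loosening genes moved in both directions. Of 27 probe sets for expansins and xyloglucan endotransglucosylases, 8 were higher, 3 lower and 16 not called (40.7% called, median 0.30, beside 27.1% and -0.088 over all probe sets). EXPA7 and EXPA18, expansins of root hairs and the 2 members of the root hair list with a named probe set (of 20 genes listed), were both higher. EXPA7 was at 288.1, 369.4 and 577.6 in replicate 1 and at 90, 163.4 and 262.7 in replicates 2 and 3, without overlap (1.27 ± 0.18, adjusted p = 0.000278), and EXPA18 differed by 0.60 ± 0.14 (adjusted p = 0.00873). The summed intensity of this pair was 536 to 967 in replicate 1 and 212 to 573 in the others; fewer cells of a type and less RNA per cell cannot be told apart in such samples, and the part of root hairs in the other differences was not tested. EXLA3 (1.38 ± 0.27), EXLB1 (1.13 ± 0.29), EXLA2 (0.98 ± 0.27), EXPB3 (0.79 ± 0.16), EXPB1 (0.62 ± 0.14) and EXPA4 (0.48 ± 0.15) were also higher in replicate 1. XTH29 was lower, with 40, 44.3 and 54.2 in replicate 1 and 134.8, 166.6 and 194.5 in the others (-1.84 ± 0.08, adjusted p = 1.11e-08), as were EXPA8 (-1.03 ± 0.15) and XTH21 (-0.72 ± 0.18).

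Glutathione S-transferase genes, of the conjugation of toxic compounds, had 6 of 14 probe sets higher and 3 lower (64.3% called, median 0.29, beside 27.1% and -0.088 over all probe sets). GSTU21 was at 187.9, 210.8 and 295.0 in replicate 1 and at 20.2, 28.0 and 51.8 in replicates 2 and 3 (2.84 ± 0.24, adjusted p = 3.51e-06). GSTU16 (1.44 ± 0.38), GSTU23 (0.75 ± 0.17), GSTU26 (0.65 ± 0.12), GSTL3 (0.64 ± 0.09) and GSTU28 (0.64 ± 0.17) were higher, and GSTU27 (-0.60 ± 0.12), GSTU20 (-0.58 ± 0.19) and GSTF4 (-0.46 ± 0.15) lower. The call of GSTU16, a dim probe set with a mean intensity of 18.96, was lost without either 1 h array of replicate 1 (adjusted p of 0.053 and 0.0548).

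Of 3 probe sets for abscisic acid, drought and cold (36 genes listed), 2 were higher in replicate 1. The share called was 66.7%, beside 27.1% called and 11.1% higher over all probe sets. So few probe sets do not set the list apart from that share. The 2 were the dehydrin genes LTI30 and COR47, which respond to cold, drought and abscisic acid. LTI30 was at 1678.2, 3043.0 and 16630.3 in replicate 1 and at 553.8, 1010.6 and 6488.3 in replicates 2 and 3 (1.82 ± 0.37, adjusted p = 0.00301). Its highest value in replicate 1, as in replicate 2, was at 1 h in Fe-deficient solution, where replicate 3 was at 1139.0. COR47 differed by 0.87 ± 0.19 (adjusted p = 0.00529). The third matched member of that list, COR15A, was dim and differed by 0.64 ± 0.42. LTI30 did not follow the pattern of AT5G45500 at 24 h, with 865.6 and 589.5 on the Fe-deficient arrays of replicates 1 and 2 and 1250.0 and 1096.9 on the Fe-sufficient ones.

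Of 5 hypoxia genes with a named probe set (17 listed), HRU1, a universal stress protein gene induced by low oxygen, was the 1 called, with 720.7, 949.5 and 3845.8 in replicate 1 and 307.0, 467.4 and 495.0 in the others (1.48 ± 0.29, adjusted p = 0.00274). The arms did not overlap, and the highest value was on the Fe-sufficient 6 h array. PDC2 (0.87 ± 0.42), LDH1, HRA1 and WIP4 did not pass the test. Of 5 genes of sugar starvation (27 listed), AKINBETA1, a subunit of the SnRK1 kinase complex, was higher (0.69 ± 0.14, adjusted p = 0.00356). The flavonoid glucosyltransferase genes UGT78D1 (-1.12 ± 0.33) and UGT78D2 (-0.93 ± 0.22) were lower, while 4 other flavonoid probe sets were not called. The UGT78D1 call was lost without any 1 of 3 replicate 1 arrays, those of 0 h in either medium and the Fe-sufficient one of 6 h (adjusted p of 0.062 to 0.0821). Peroxidase gene Prx37, at 4235.4 to 5612.3 in replicate 1 and 6278.5 to 9492.7 in replicates 2 and 3, was lower (-0.65 ± 0.10, adjusted p = 0.000333). Of the 5 peroxidase genes with a named probe set, 1 was higher and 1 lower. The shares called were 20% for hypoxia, 20% for sugar starvation, 33.3% for flavonoids and 40% for peroxidases, beside 27.1% over all probe sets.

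Of 69 probe sets of the plastid genome, 1 was higher and 6 lower in replicate 1 (10.1% called, beside 27.1% over all probe sets). The clearest was the ribosomal protein gene rps4, at 764.1, 870.8 and 1186.9 in replicate 1 and 2349.0, 2706.4 and 2999.4 in replicates 2 and 3 (-1.55 ± 0.09, adjusted p = 1.1e-07). Of 32 photosynthesis probe sets, 9.38% were called. LHCB4.2 (2.57 ± 0.40) and LHCB4.1 (0.92 ± 0.27), antenna proteins of photosystem II, were higher and psaI (-0.49 ± 0.15) lower. The summed intensity of the photosynthesis list was 11684 to 17259 in replicate 1 and 10288 to 21276 in the others. Leaving out single replicate 1 arrays ended the calls of LHCB4.1 (the Fe-deficient ones of 0 and 1 h and the Fe-sufficient one of 6 h; adjusted p of 0.0518 to 0.0771) and of psaI (the Fe-deficient one of 0 h, both of 1 h and the Fe-sufficient one of 6 h; 0.0693 to 0.0963).

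Several other functions were only thinly covered, because 9193 probe sets had no single gene name here. A named probe set was at hand for 2 of 27 clock genes listed, 4 of 21 touch and wound genes, 6 of 26 heat shock genes, 3 of 28 cell division genes, 1 of 24 endodermis genes and 3 of 23 glucosinolate genes, and for 0 of 26 phosphate starvation genes. Their counts do not show how these functions as a whole differed. Over all probe sets, 27.1% were called. The Fe and other metal lists were also covered only in part. A named probe set was at hand for 14 of 20 Fe acquisition genes, 19 of 34 Fe regulator and distribution genes and 7 of 10 Fe storage genes. For Zn transport it was 6 of 19, for Cu transport 2 of 13, for flavonoids 6 of 18, and for abscisic acid, drought and cold 3 of 36. The lists of peroxidases, glutathione S-transferases, expansins and xyloglucan endotransglucosylases, auxin response and WRKY factors also held only members with a named probe set. Their shares do not describe the whole families. Neither of 2 clock probe sets (GI at -0.10 ± 0.12 and RVE6 at 0.21 ± 0.11), none of 4 touch and wound probe sets (CML37, CML38, CML39 and STZ, at -0.44 to 0.92) and none of 6 WRKY probe sets passed the test. One of 6 heat shock probe sets, HSP70-3, was lower (-0.56 ± 0.19, adjusted p = 0.0414), and this call was lost without any 1 of 13 of the 18 arrays (adjusted p of 0.0501 to 0.114). Of 3 cell division probe sets, AUR1 was lower (-0.43 ± 0.11), and of 11 auxin response probe sets, IAA18 was higher (0.47 ± 0.13) and GH3.9 lower (-0.59 ± 0.20), the GH3.9 call being lost without any 1 of 12 arrays (adjusted p of 0.0507 to 0.135). SGN3, a receptor kinase of the endodermal barrier and the 1 matched gene of its list, was higher by 0.25 ± 0.08, a call lost without any 1 of 11 arrays. Of 3 glucosinolate and ER body probe sets, UGT74B1 was lower (-0.45 ± 0.12). The reference genes SAND (-0.30 ± 0.10) and TIP41 (-0.28 ± 0.09) were lower by small amounts, UBC21 was not called, and both calls were lost without any 1 of 14 arrays.

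Technical measures moved with the replicate number as well. The ratio of 3′ to 5′ probe sets for actin, a measure of RNA or cDNA length, was 2.46 to 3.43 on replicate 1 arrays, 3.14 to 5.12 on replicate 2 and 4.01 to 5.52 on replicate 3. The GAPDH ratio was 1.14 to 1.40, 1.16 to 1.78 and 1.23 to 1.72. The bioB spike was at 196.6 to 247.6, 241.9 to 333.9 and 287.7 to 535.5 in replicates 1, 2 and 3. The 25S rRNA probe set was at 168.9 to 280.4 in replicate 1 and 168.1 to 294.9 in replicate 2, and at 55.8 to 92.2 in replicate 3. The part of these measures in the gene differences was not tested.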

How the data were processed

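The 22 Affymetrix ATH1 arrays were deposited as 1 linear intensity per probe set, with a trimmed mean (2% off each end) of 500.04 or 500.05 on every array. The methods of the authors name a probe-level linear model; the program behind the deposited intensities is not given in the sources used here. Of 22810 probe sets, 64 controls were left out. Of the 22746 tested, 13553 were named to 1 gene, 40 of them only through the study's lists of Fe-responsive probe sets. Values were log2(intensity + 1), fitted with limma 3.58.1 in R 4.3.3: 6 time by medium groups plus a replicate 1 term (11 residual degrees of freedom), a replicate term of 3 levels (10), interactions, and Fe contrasts without a block (12). P-values were adjusted by Benjamini-Hochberg over all probe sets. The fit was tested on simulated data.

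The rule named the 12 largest increases and 12 largest decreases (mean intensity of at least 100, replicate 1 on 1 side of both others in at least 5 of 6 groups), up to 4 called members per list with the largest change, and all Fe genes. Other members of the lists were named to complete their counts, after their values were seen. The members and the lists were chosen with earlier results of these data known. A list meant for cytosolic ribosomal proteins matched only plastid genes and is covered by these. Replicate numbers paired the media: at each time, the deviations of same-numbered Fe-deficient and Fe-sufficient arrays correlated with r = 0.12 to 0.45, so the fit with the replicate number as a block is given too. Alternatives were another pseudocount, quantile normalisation, an intensity filter, an intensity trend, additive factors, subsets of times, media and replicates, and leaving out each array.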

Additional observations from a re-analysis of the deposited data

Results flagged for a closer look

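For 11 of 112 genes, 1 of the 6 differences (replicate 1 minus the mean of replicates 2 and 3 at 1 time and medium) lay far from the other 5. Chance would mark about 1 in 20 if the genes were independent. They share the same arrays, and some were chosen after their values were seen, so the count does not measure an excess. In Fe-sufficient roots at 6 h such a gap was found for 7 genes, which are read from the same arrays. S8H was at 2.48 there and between -0.74 and 0.06 in the other conditions, COPT2 at 2.27 (others 0.25 to 0.70), BHLH101 at 2.52 (others -0.22 to 0.64) and FIT at 0.92 (others -0.41 to 0.05). MTPA2 was at 0.20 (others -1.72 to -1.04), FRO3 at 0.04 (others -1.20 to -0.91) and the lectin gene JAL33 at 2.48 (others 1.08 to 1.43).

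In Fe-deficient roots, BTS was at -0.06 at 0 h (others -0.65 to -0.45) and LHCB4.1 at 2.32 at 0 h (others 0.26 to 0.93). LIL3:1 was at -5.18 at 1 h (others -2.88 to -2.05), and MIT2, a mitochondrial Fe transporter gene, at 0.27 at 6 h (others -0.41 to -0.27).

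The 24 h arrays, in no fit, held the probe sets that were well measured in replicate 1 alone: 22 of 22 were at 100 or more on the Fe-deficient array of replicate 1 and 21 of 22 on the Fe-sufficient array of replicate 2, against 0 on each of the other 24 h arrays.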

How the results depend on the processing

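With fewer arrays the 6170 calls were fewer: 3926 without 0 h, 2866 without 1 h and 3178 without 6 h, 169, 247 and 206 for 0, 1 and 6 h alone, 1584 for Fe-deficient and 1402 for Fe-sufficient arrays, and 3521 for replicate 1 against replicate 2 alone. The criterion of the study gave 3540. Leaving out 1 array gave 4765 to 6250, and 3535 to 4763 and 4911 to 6022 against replicates 2 and 3 singly. The 27 calls between replicates 2 and 3 became 133 with 32 added, 93 with a mean intensity of at least 32, 264 with an intensity trend, 66 with additive factors, and 1 to 106 without 1 array. Interactions with medium and with time gave 0 to 1 call each without 1 array.

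For the Fe contrasts at 0, 1 and 6 h, the criterion was met by 180, 131 and 222 probe sets with 32 added and by 169, 146 and 197 above a mean of 32. With the replicate block it was met by 602, 566 and 642. Without 1 array the ranges were 431 to 594, 344 to 769 and 457 to 601.

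Of 80 named genes called, 79 kept their sign in every alternative and 11 also their call; MTP8 turned to 0.04 at 6 h alone (adjusted p = 0.974). Of 32 not called, 22 changed sign in at least 1 alternative. Fe acquisition calls numbered 3 against replicate 3 alone and 4 against replicate 2 alone, 1 without the 1 h arrays and 1 in Fe-deficient arrays, and 0 at each single time and in Fe-sufficient arrays. Low intensities limit fold sizes: the log2 difference of AT5G45500 was 9.74 with 1 added and 6.56 with 32.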
